A study of Mus musculus with 23 samples.

Results

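Transcripts of 10 genes, the matrix metalloproteinases Mmp2, Mmp3, Mmp11, Mmp13, Mmp14, Mmp19 and Mmp23 and the tissue inhibitors of metalloproteinases Timp1, Timp2 and Timp3, were examined in individual mouse mesenchymal stem cells. The genes were chosen by symbol with earlier results of these data known, and all 10 are among the 23284 genes of the expression table. Single bone marrow-derived mesenchymal stem cells (16, named mMSC1 to mMSC16) were sequenced together with 5 single HL-1 cardiomyocytes (HL1cm1 to HL1cm5) and 1 population control of each cell type (mMSC-PC and HL1cm-PC), giving 23 libraries. The mMSCs were purchased, came from the bone marrow of 3 month-old male C57BL mice and were used at passages 6 to 11. HL1cm, a line of cardiomyocytes that divide in culture, were at passages 70 to 85, and the labels give C57BL/6J as the strain of both cell types. No treatment and no genetic change made for the study is named for any group. mMSCs grew on gelatin in α-MEM with fetal bovine serum and HL1cm on fibronectin and gelatin in Claycomb medium with norepinephrine, so that cell type, passage and culture conditions cannot be told apart. Levels are FPKM, the number of sequenced fragments of a gene scaled by the length of its exons and by all fragments mapped in the library, so that genes can be set side by side.

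Matrix metalloproteinases are zinc-dependent enzymes that are made as inactive precursors and, once a propeptide has been removed, cleave collagens and other proteins of the extracellular matrix. Timps bind the active site and block it. Mmp14 sits in the plasma membrane, where Timp2 can hold the precursor of Mmp2 beside it for activation. In bone marrow stroma these enzymes are known for matrix turnover and for the movement of cells through it.

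A feature that the 7 Mmp members share is the zinc-binding site of the catalytic domain, and its coding sequence is shown for each. Genes outside the members were not searched for it. The 33 bases were found in the reading frame of the longest coding transcript of each gene in GENCODE M21 (GRCm38, the build called mm10), where each of the 7 holds the site once. Capitals mark the 3 histidine codons that hold the zinc ion:
Mmp2: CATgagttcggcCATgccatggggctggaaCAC
Mmp14: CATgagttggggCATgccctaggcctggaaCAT
Mmp11: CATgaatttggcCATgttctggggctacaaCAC
Mmp13: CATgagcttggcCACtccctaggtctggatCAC
Mmp19: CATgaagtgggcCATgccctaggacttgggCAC
Mmp23: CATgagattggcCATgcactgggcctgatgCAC
Mmp3: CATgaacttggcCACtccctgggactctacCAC

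Compared with Mmp2, 27 of the 33 bases were identical in Mmp14, 26 in Mmp11, 25 in Mmp13 and Mmp23, 24 in Mmp19 and 23 in Mmp3. In the same annotation, Mmp2 lies on chromosome 8 from base 92827291 to 92853420, and Mmp14 on chromosome 14 from 54431612 to 54445364. Mmp13 (7272514 to 7283331) and Mmp3 (7445822 to 7455975) are neighbours on chromosome 9. Timp1 (chromosome X, 20870166 to 20874735) and Timp3 (chromosome 10, 86300372 to 86349506) each lie inside a synapsin gene on the opposite strand, Syn1 and Syn3. The sources used here do not state that reads were counted by strand, so that reads of such partners cannot be told apart. Syn1 was above 0 in 1 mMSC, at 9.69 FPKM, and Syn3 in 1 mMSC, at 0.378 FPKM, and both were listed at 0 in all 5 HL1cm. Timp2 overlaps another gene, Cep295nl, on the same strand in this annotation, and the levels of Cep295nl were not examined.

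The FPKM table holds no read counts, and the aligned read pairs that the study lists for each cell were not used here, so that no counting error is given for single values. A single mMSC held 5178 to 7241 genes that reached 1 FPKM, with the fewest in mMSC9, and a single HL1cm 6428 to 7010. The population controls held more, 9625 in mMSC-PC and 9881 in HL1cm-PC. The sum of FPKM over all genes set 6 cells apart. It was 2.40 to 3.02 times the median of the mMSCs in mMSC1, mMSC8 and mMSC16 and 2.00 to 2.69 times it in HL1cm1, HL1cm3 and HL1cm5, while no other library exceeded 1.505 times it. Several results that involve the 3 mMSCs, though not all, are also given for the other 13, a choice made after the data were seen. The cell types were checked against marker lists. The summed level of 9 cardiomyocyte genes ranged from 29691 to 55660 FPKM in HL1cm and from 0 to 65.4 FPKM in mMSCs. Of 8 mesenchymal genes, 7 were above 0 in mMSCs, while Thy1, a surface glycoprotein, was listed at 0 in every library. In HL1cm 5 of the 8 were listed at 0 in every cell, and the intermediate filament gene Vim gave most of the sum of 557 to 1005 FPKM. Macrophages also make Mmps, and of 8 macrophage genes Ptprc, Emr1, Lyz2 and Mrc1 were at 0 in all mMSCs, whereas Cd14 was above 0 in 15 of them, with a median of 62.5 FPKM, and Csf1r in 8, with 32.6 FPKM at most. Itgam was above 0 in 2 mMSCs and Cd68 in 1. The sum of the 8 ranged from 3.10 to 369 FPKM in mMSCs and from 0 to 1.10 FPKM in HL1cm. The part of such cells in the Mmp levels was not tested. Of 4 endothelial genes, Kdr was above 0 in 1 mMSC and the other 3 in none. Since no separate cultures are named, the cells of each type count as 1 sample. The cells are therefore described one by one, and no test was made between the types.

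Across the family, 5 members (Mmp2, Mmp14, Timp1, Timp2 and Timp3) were above 0 in 16 of 16 mMSCs, which corresponds to 100% with an exact (Clopper-Pearson) 95% interval from 79.4% to 100% that covers counting error only. For these 5 members every mMSC lay above every HL1cm. Over the 13543 genes that reached 1 FPKM in any of the 21 single cells, 259 (1.91%) had such a separation with mMSCs above. Such a separation was counted only where every mMSC was above 1 FPKM, and 2143 genes reached 1 FPKM in all 16 mMSCs. With values under 1 FPKM set to 1, the mean log2 FPKM was at least 4-fold higher in mMSCs than in HL1cm for the same 5 members, against 7.67% of all genes tested, and for none of the members was it 4-fold higher in HL1cm, against 8.17%. With values under 10 FPKM set to 10, Mmp14 lost both its 4-fold difference, at 1.23 on the log2 scale, and its separation. The other 4 members tested were above 0 in 3 to 6 mMSCs, and Mmp3 was not tested because it was at 0 in all 21 cells. The median difference in mean log2 FPKM over the 10 members was 3.08, beside 0.08 over all genes tested. The members, like the lists below, were chosen with earlier results of these data known. The shares over all genes are therefore given for description and are no test of the members. In the population controls 9 of the 10 members were at least 4-fold higher in mMSC-PC than in HL1cm-PC, with Mmp11 as the exception, against 11.1% of 11509 genes.

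**Figure D1:**
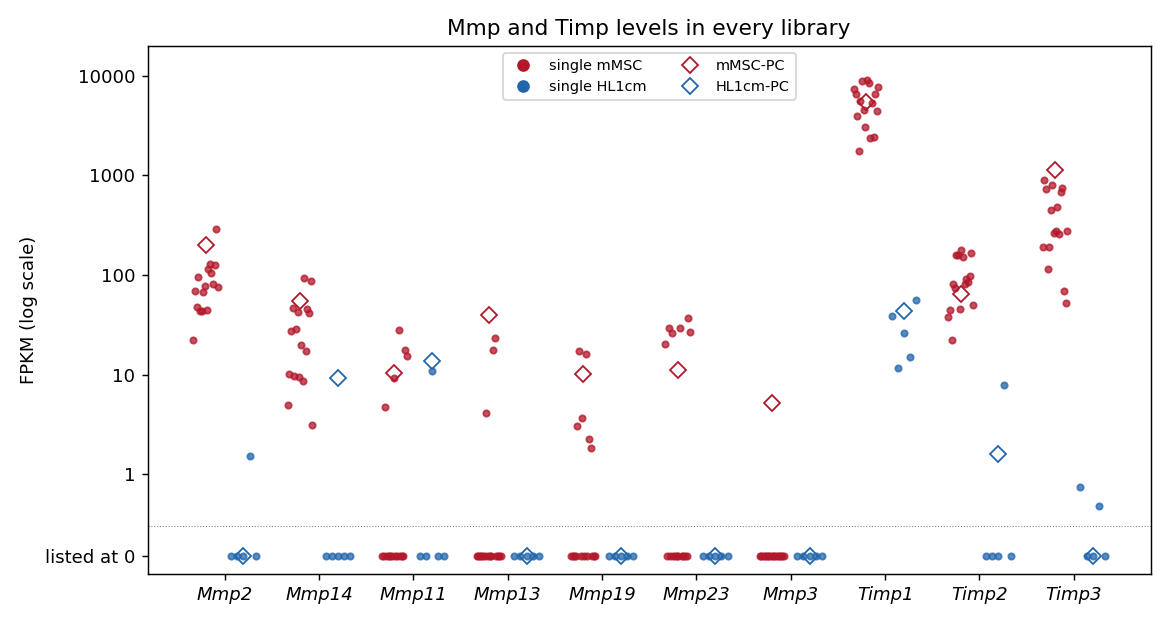
FPKM on a log scale of the 10 members in single mMSCs (red circles), single HL1cm (blue circles) and the population controls (open diamonds), with values of 0 drawn on a separate line at the bottom. All 16 mMSCs lie above all 5 HL1cm for Mmp2, Mmp14, Timp1, Timp2 and Timp3, while Mmp3 was above 0 in mMSC-PC alone.

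Mmp2, a gelatinase that also degrades type IV collagen, ranged in mMSCs from 22.1 FPKM (mMSC1) through a median of 77.0 to 291 FPKM (mMSC15) and was at 200 FPKM in mMSC-PC. In HL1cm it was at 1.54 FPKM in HL1cm4 and listed at 0 in the other 4 cells and in HL1cm-PC. The lowest mMSC exceeded the highest HL1cm by 14.4-fold. Mmp14, the membrane-type enzyme, ranged from 3.14 FPKM (mMSC16) through a median of 23.6 to 94.3 FPKM (mMSC11). It was listed at 0 in all 5 HL1cm, and a share of up to 52.2% of such cells is within the exact interval. The population controls held 54.8 FPKM of Mmp14 for mMSC-PC and 9.16 FPKM for HL1cm-PC, a 5.99-fold difference. Mmp14 transcripts were therefore present in the HL1cm population control at a level that 3 single mMSCs did not reach. These were mMSC16 (3.14 FPKM), mMSC1 (4.92 FPKM) and mMSC10 (8.53 FPKM), of which mMSC16 and mMSC1 were cells of high FPKM sum.

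Timp2, the inhibitor that can bridge the other two at the membrane, ranged in mMSCs from 22.4 FPKM (mMSC3) through a median of 83.3 to 179 FPKM (mMSC9) and was at 65.1 FPKM in mMSC-PC. In HL1cm it was at 7.87 FPKM in HL1cm4, at 0 in the other 4 cells and at 1.61 FPKM in HL1cm-PC, so that the lowest mMSC was 2.85-fold above the highest HL1cm. The 2 genes above 0 in HL1cm4 but in no other single HL1cm are therefore Mmp2 and Timp2. Of the mesenchymal markers, Vim alone was above 0 in HL1cm4, at 1005 FPKM, and 2 markers were above 0 in each of the other 4 HL1cm, where Vim ranged from 555 to 705 FPKM. The part of this in the Mmp2 and Timp2 values was not tested.

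The proportions of Mmp14, Mmp2 and Timp2 were compared within each mMSC. Mmp2 exceeded Mmp14 in 16 of 16 cells, from 1.38-fold in mMSC11 to 24.2-fold in mMSC16 with a median of 3.16. Over the 13 mMSCs of lower FPKM sum, the highest was 13.6-fold, in mMSC10, and the median 2.25. Timp2 exceeded Mmp14 in 14 cells, with a median ratio of 4.66, and fell below it in mMSC3 (0.822) and mMSC11 (0.860). The highest ratio of Timp2 to Mmp14 was 17.6, in mMSC10, and its median over the 13 mMSCs of lower FPKM sum was 3.72. Timp2 exceeded Mmp2 in 7 cells, and the ratio ranged from 0.474 in mMSC3 to 3.98 in mMSC9. In mMSC-PC the ratio of Timp2 to Mmp14 was 1.19 and that of Timp2 to Mmp2 was 0.326, the latter below all 16 cells.

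**Figure D2:**
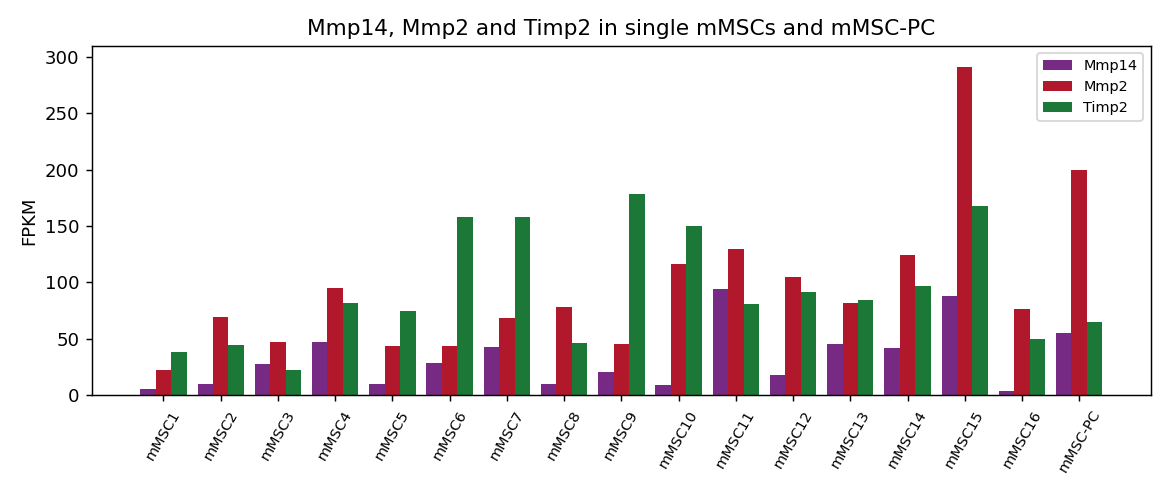
FPKM of Mmp14, Mmp2 and Timp2 in the 16 single mMSCs and in mMSC-PC, as bars from 0. Mmp2 stands above Mmp14 in every library shown, and Timp2 is below Mmp14 only in mMSC3 and mMSC11.

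Timp1, a secreted inhibitor of most Mmps, was the member of the highest level. It ranged in mMSCs from 1780 FPKM (mMSC4) through a median of 5492 to 9176 FPKM (mMSC9) and was at 5443 FPKM in mMSC-PC. By its median it ranked 8 among all genes of the table in mMSCs. In HL1cm it was at 38.7, 11.7, 26.1, 15.1 and 56.7 FPKM in HL1cm1 to HL1cm5 and at 43.5 FPKM in HL1cm-PC. The groups did not overlap, since the lowest mMSC was 31.4-fold above the highest HL1cm and the medians differed by 211-fold. Timp1 was nevertheless the only member above 0 in all 5 HL1cm. Its median there was 0.475% of that in mMSCs. Among 104 genes with a median of 1000 FPKM or more in mMSCs, S100a11 (median 3884 FPKM), Ccl7 (1387 FPKM) and Ly6a (1190 FPKM), named after their values were seen, were at 0 in every HL1cm library, the population control included.

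Timp3, the inhibitor that stays bound to the matrix, ranged in mMSCs from 52.1 FPKM (mMSC15) through a median of 279 to 909 FPKM (mMSC2). It was at 0.747 FPKM in HL1cm1, 0.477 FPKM in HL1cm4 and 0 in the other 3 HL1cm and in HL1cm-PC. mMSC-PC held 1143 FPKM, more than any single mMSC. Timp1 exceeded Timp3 in all 16 mMSCs and Timp3 exceeded Timp2 in 14, the other two being mMSC14 and mMSC15. The ratio of Timp3 to Timp2 had the widest range of the ratios examined, with the lowest, 0.311, in mMSC15 and the highest, 106 times that, in mMSC3. Timp4 was listed at 0 in all 23 libraries.

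Summed over members, Timp transcripts exceeded Mmp transcripts in every mMSC. The Timp sum was 1978 to 9633 FPKM and the Mmp sum 47.4 to 434 FPKM, and the ratio of the sums ranged from 10.1 in mMSC11 through a median of 45.7 to 162 in mMSC1. It was 20.1 in mMSC-PC. Without the 3 mMSCs of high FPKM sum, mMSC1 among them, the median was 43.2 and the highest ratio 148, in mMSC9. Timp1 made up 74.5% to 97.5% of the Timp sum, with a median of 91.9%, and Mmp2 43.7% to 87.4% of the Mmp sum, with a median of 65.1%. The cells with the lowest ratios, mMSC11, mMSC15 (10.7) and mMSC4, included the cells of highest Mmp14 (mMSC11 and mMSC15), of highest Mmp2 (mMSC15) and of lowest Timp1 (mMSC4). In HL1cm the Timp sum was 11.7 to 56.7 FPKM and 3 of the 5 cells had no Mmp member above 0, so the ratio was defined only in HL1cm3 (2.38), HL1cm4 (15.3) and HL1cm-PC (1.98).

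The other Mmp members were found in a minority of cells. Mmp23, a membrane-anchored member, was at 20.4 FPKM in mMSC1, 29.0 in mMSC3, 26.0 in mMSC5, 29.4 in mMSC10, 36.7 in mMSC15 and 26.6 in mMSC16, and at 0 in the other 10 mMSCs. It was therefore either at 0 or above its level of 11.1 FPKM in mMSC-PC. Mmp19 was above 0 in 6 mMSCs at lower and more uneven levels, 17.4 FPKM in mMSC6, 16.2 in mMSC10, 3.64 in mMSC8, 3.05 in mMSC5, 2.23 in mMSC12 and 1.81 in mMSC13, with 10.1 FPKM in mMSC-PC. Each of these 2 genes was thus above 0 in 37.5% of mMSCs (exact 95% interval 15.2% to 64.6%), and both were at 0 in HL1cm and HL1cm-PC. Among the 13 mMSCs of lower FPKM sum, Mmp23 was above 0 in 4 and Mmp19 in 5. Mmp19 shares 2739 bases with Tmem198b on the opposite strand in RefSeq, and Tmem198b was found in 10 mMSCs at up to 14.2 FPKM.

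Mmp11, known as stromelysin-3, was at 4.76 FPKM in mMSC3, 9.25 in mMSC8, 28.1 in mMSC11, 17.7 in mMSC15 and 15.3 in mMSC16, which is 31.2% of mMSCs (11.0% to 58.7%). Among the 13 mMSCs of lower FPKM sum, Mmp11 was above 0 in 3. In the cardiomyocytes it was at 11.0 FPKM in HL1cm3 and 0 in the other 4 HL1cm. It was the only member that was not higher in mMSC-PC, with 10.5 FPKM there and 13.7 FPKM in HL1cm-PC. Its neighbour Chchd10, chosen after its values were seen like Tmem198b, which overlaps Mmp11 on the opposite strand in GENCODE M21 but shares 0 bases with it in RefSeq, ranged from 81.0 to 283 FPKM in HL1cm, was highest among these cells in HL1cm3 and was at 410 FPKM in HL1cm-PC. In mMSCs Chchd10 was above 0 in 1 cell, at 29.1 FPKM. Whether reads of Chchd10 were assigned to Mmp11 was not tested.

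Mmp13, an interstitial collagenase, was at 4.11 FPKM in mMSC7, 17.6 in mMSC11 and 23.5 in mMSC12 and at 0 in the other 13 mMSCs, or above 0 in 18.8% of them (4.05% to 45.6%). Mmp3, known as stromelysin-1, was at 0 in all 16 mMSCs, for which the exact interval reaches 20.6%. In mMSC-PC, however, Mmp13 was at 39.7 FPKM, above every single cell, and Mmp3 at 5.17 FPKM. Both were at 0 in all HL1cm libraries. Of the 4 Mmps found in a minority of cells (Mmp11, Mmp13, Mmp19 and Mmp23), 8 mMSCs held 2, 4 held 1 and 4 held none, and no cell held 3.

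**Figure D3:**
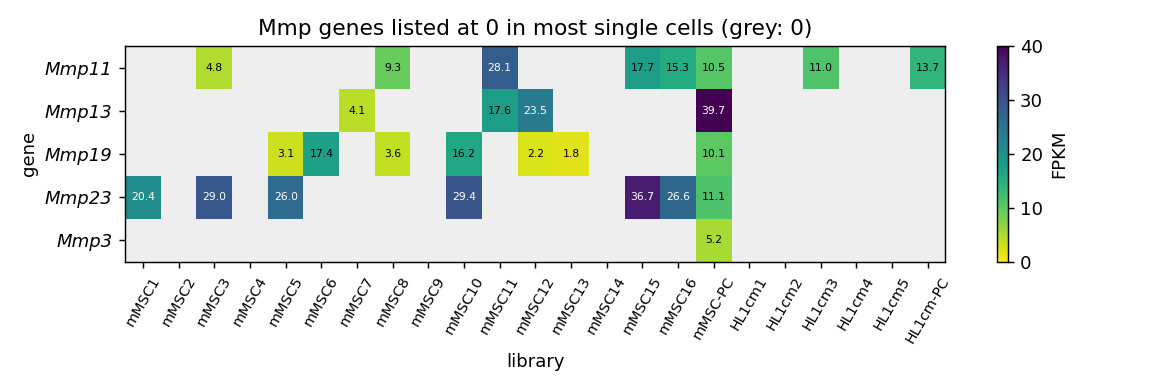
FPKM of the 5 Mmp members listed at 0 in most single cells, one column for each of the 23 libraries, with the value printed in each cell above 0 and grey for 0. All 5 rows are filled in mMSC-PC, and no single mMSC has more than 2 of them.

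Promoter sequences are shown for the members found mainly in the population control (Mmp13 and Mmp3) and for a membrane enzyme and an inhibitor found in every mMSC (Mmp14 and Timp1). RefSeq (GRCm38.p6) gave promoters for 8 of the 10 members, and Mmp2 and Mmp19 had no entry. The 250 bases before each start were searched on both strands for the AP-1 motif TGAGTCA (read as TGACTCA on the other strand) and its variant TGAGTAA, the TATA box TATAAA and the GC box CCGCCC, none of which overlaps another in these members. The last 150 of these bases are printed from 5′ to 3′ on the strand of the gene, with matches in capitals, for Mmp13 (chr9:7272364-7272513, plus strand), Mmp3 (chr9:7445672-7445821, plus strand), Mmp14 (chr14:54431448-54431597, plus strand) and Timp1 (chrX:20870016-20870165, plus strand):
Mmp13: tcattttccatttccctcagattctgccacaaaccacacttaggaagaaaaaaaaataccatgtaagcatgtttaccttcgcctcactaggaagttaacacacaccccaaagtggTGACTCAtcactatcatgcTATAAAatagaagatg
Mmp3: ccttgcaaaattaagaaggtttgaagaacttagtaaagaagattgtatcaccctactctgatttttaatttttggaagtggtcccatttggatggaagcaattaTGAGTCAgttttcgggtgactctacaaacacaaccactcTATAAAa
Mmp14: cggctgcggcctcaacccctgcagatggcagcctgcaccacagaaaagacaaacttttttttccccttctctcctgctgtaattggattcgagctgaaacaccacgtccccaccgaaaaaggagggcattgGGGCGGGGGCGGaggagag
Timp1: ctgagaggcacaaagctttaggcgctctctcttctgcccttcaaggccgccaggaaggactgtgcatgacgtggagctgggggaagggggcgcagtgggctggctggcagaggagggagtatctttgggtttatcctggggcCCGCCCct

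Mmp13 and Mmp3 each held the AP-1 motif followed by a TATA box, at bases -35 to -29 and -16 to -11 from the start of Mmp13 and at -46 to -40 and -7 to -2 from that of Mmp3. Of 32851 promoters in the table, 4.46% held the AP-1 motif, 12.4% the TATA box and 0.721% both. The 4 members with a promoter entry that were above 0 in every mMSC (Mmp14, Timp1, Timp2 and Timp3), together with Mmp11, held GC boxes and none of the other motifs, and a GC box was found in 32.7% of all promoters. The variant TGAGTAA, present in 2.25% of promoters, was in none of the 8 members, and Mmp23 held none of the motifs. A match describes letters only and is no evidence that a factor binds there.

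The mMSC population control was compared with the mean FPKM of the 16 mMSCs. In a population control, fewer cells with a transcript and less of it in each cell cannot be told apart. Timp1 was nearly the same in both, with a ratio of 0.985, and 8 cells lay above and 8 below mMSC-PC. Mmp23 had a ratio of 1.06 and Timp2 one of 0.683, whereas Mmp14 (1.77), Mmp2 (2.23), Mmp11 (2.23), Timp3 (2.81) and Mmp19 (3.64) were higher in mMSC-PC, as was Mmp13, for which the log2 of the ratio was 3.81. Gapdh, a housekeeping gene, had a ratio of 2.60, so that a ratio of this size was not limited to the family. For Timp3 and Mmp13 the population control lay above all 16 cells, and for Mmp2 above 15. In HL1cm the ratio was 1.46 for Timp1 and 6.22 for Mmp11, and Mmp14 was above 0 in the population control but in none of the cells. There is 1 population control of each type, so these ratios have no replicate check.

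**Figure D4:**
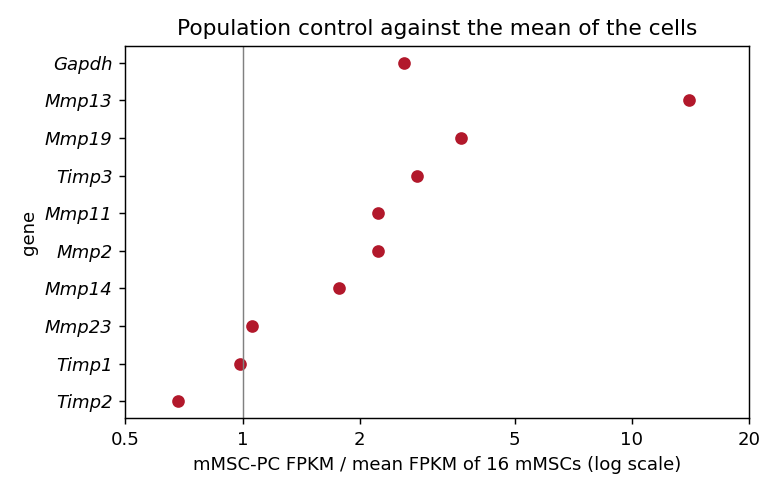
Ratio of the FPKM in mMSC-PC to the mean FPKM of the 16 single mMSCs, on a log scale, for the 9 members above 0 in at least 1 mMSC and for Gapdh, with a line at 1. Timp1 lies at 0.985, Gapdh at 2.60 and Mmp13 farthest to the right.

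The spread between mMSCs was described by the SD of log2 FPKM for the 5 members above 0 in all of them. The SD was 0.74 for Timp1, 0.86 for Mmp2, 0.89 for Timp2, 1.26 for Timp3 and 1.44 for Mmp14 (n = 16 cells). The median over the 2143 genes that reached 1 FPKM in all 16 cells was 0.86, so that Mmp2 and Timp2 were at the middle of these genes. Mmp14 had an SD above that of 2035 of them, at a mean level above 20.5% of them, and Timp3 an SD above 85.8%, at a mean level above 83.7%. Between the lowest and the highest mMSC the levels differed by 5.16-fold for Timp1, 7.98-fold for Timp2, 13.2-fold for Mmp2, 17.4-fold for Timp3 and 30.0-fold for Mmp14. The 2 lowest mMSCs for Mmp14 (mMSC16 and mMSC1) and the lowest for Mmp2 (mMSC1) were cells of high FPKM sum. Over the other 13 mMSCs the SD was 1.15 for Mmp14 and 0.80 for Mmp2, and the ranges were 11.0-fold and 6.69-fold. There, Timp3 had the largest SD of the 5 members, at 1.39. Over all 16 mMSCs the SD of Gapdh was 0.29 and its range 2.04-fold.

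Relations between these 5 members over the 16 mMSCs are given as descriptions without p-values, since the cells come from an unstated number of cultures and share one processing. Of the 10 pairs, Mmp14 and Timp1 had the largest correlation, with Pearson's r of -0.55 and Spearman's rho of -0.58, and r was -0.48 without mMSC16 and mMSC1, the cells farthest from the median of Mmp14. Mmp2 and Mmp14 had r of 0.53 and rho of 0.46, and r was 0.23 without mMSC15 and mMSC1, the cells farthest from the median of Mmp2. Mmp14 and Timp2 had r of 0.43, and 0.25 without mMSC16 and mMSC1. Between the 3 Timps, r lay between -0.20 and 0.20 over all 16 cells. With the number of genes that reached 1 FPKM, r was -0.44 for Timp2, 0.14 for Timp3 and -0.09 for Mmp14. Without mMSC9 and mMSC15, the cells farthest from its median, r was -0.02 for Timp2, -0.45 for Timp3 and 0.28 for Mmp14. With the log2 of the FPKM sum, r was -0.69 for Mmp14 (rho -0.53) and -0.26 over the 13 mMSCs of lower sum, and for Timp1 it was 0.33 (rho 0.44) and 0.50. In the same order r was -0.42 and -0.23 for Mmp2, -0.32 and 0.33 for Timp2, and -0.35 and -0.52 for Timp3. Over the same 13 cells, which include mMSC15 but not mMSC1, r was -0.62 for Mmp14 and Timp1 and 0.51 for Mmp2 and Mmp14. It was -0.54 for Mmp2 and Timp3, -0.44 for Mmp14 and Timp3, and 0.16 for Mmp14 and Timp2. Between the Timps, r over these 13 cells was 0.34 for Timp1 and Timp2, -0.31 for Timp2 and Timp3, and 0.12 for Timp1 and Timp3. The part of the FPKM sum in these relations was not tested.

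For each of the 5 members, the genes of most similar pattern were sought among 4679 genes that reached 1 FPKM in 12 or more of the 16 mMSCs. By Pearson's r of log2 FPKM over the 16 cells they were Fbxw7 (0.84), Ddx54 (0.77) and Atp6v0c (0.76) for Timp1, and Smarca2 (0.82), Trappc2l (0.78) and Derl2 (0.78) for Timp2. They were Vasn (0.79), Abhd11 (0.77) and Rap1b (0.77) for Timp3, Ccdc82 (0.78), Tmem167 (0.76) and Frg1 (0.76) for Mmp14, and Mrps22 (0.77), Errfi1 (0.75) and Ndufa4 (0.73) for Mmp2. No member was among the 3 genes nearest to another member. These r are the highest of 4679 over 16 cells, so they are high in part by selection. How high r would be for other genes was not tested. Ddx54, Smarca2, Vasn, Abhd11, Frg1 and Mrps22 were each at 0 in at least 1 mMSC. The search was not repeated without the 3 mMSCs of high FPKM sum.

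Genes that activate, anchor or oppose Mmps were examined as a list of 20, of which 17 were tested. Of these, 9 were at least 4-fold higher in mMSCs, beside 7.67% of all genes, none was 4-fold higher in HL1cm, beside 8.17%, and 5 had every mMSC above every HL1cm, beside 1.91%. Their median difference in mean log2 FPKM was 2.08, beside 0.08 over all genes tested. Serpine2, an inhibitor of serine proteases, ranged from 238 to 1392 FPKM in mMSCs and was at 0 in HL1cm. Plaur, the receptor of urokinase, ranged from 22.7 to 309 FPKM in mMSCs and reached 34.4 FPKM in HL1cm, so that its ranges overlapped. Thbs1, a matricellular protein, ranged from 61.0 to 630 FPKM in mMSCs and was at 0 in HL1cm, and Cd44, the hyaluronan receptor that can anchor Mmps at the surface, ranged from 103 to 588 FPKM and reached 1.94 FPKM in HL1cm.

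Matrix proteins that Mmps can cleave were examined as a list of 14, of which 13 were tested, 9 were at least 4-fold higher in mMSCs, beside 7.67% of all genes, none in HL1cm, beside 8.17%, and 4 had every mMSC above every HL1cm, beside 1.91%. Their median difference was 2.47, and 3 of the 14 (Col1a1, Col1a2 and Col3a1) are also in the mesenchymal marker list. Bgn, a small proteoglycan, ranged from 359 to 1540 FPKM in mMSCs and reached 1.97 FPKM in HL1cm. The chains of type I collagen ranged from 30.8 to 385 FPKM for Col1a1 and from 80.3 to 1194 FPKM for Col1a2 in mMSCs, and Col1a1 reached 7.61 FPKM in HL1cm while Col1a2 was at 0. Fn1, fibronectin, ranged from 24.8 to 128 FPKM in mMSCs and from 3.79 to 9.31 FPKM in HL1cm. Col5a1, a chain of type V collagen, reached 22.7 FPKM in mMSCs, was listed at 0 in 1 of them and was at 0 in HL1cm.

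Related proteases were examined last. Of 15 ADAM and ADAMTS genes, which encode other zinc-dependent proteases, 14 were tested. In the single cells none was 4-fold higher in mMSCs, beside 7.67% of all genes, or in HL1cm, beside 8.17%. The median difference in the single cells was 0.22. In the population controls 3 genes of this list were at least 4-fold higher in mMSC-PC, beside 11.1% of genes. Adam17 and Adamts10, given after their values were seen, were higher in HL1cm-PC. They were at 29.6 and 12.3 FPKM there and at 6.38 and 0.919 FPKM in mMSC-PC. Of the other 16 Mmp genes and Timp4, 10 were listed at 0 in all 23 libraries, among them Mmp9, the other gelatinase. The 7 tested genes of this list were above 0 in at most 3 of the 21 single cells, with 15.3 FPKM at most. None of the 7 was 4-fold apart in the single cells, beside the same shares of all genes.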

How the data were processed

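mMSCs were trypsinized and captured on a Fluidigm C1 chip for cells of 17 to 25 micrometres, in the same device as HL1cm marked with a dye, and each capture site was imaged. The population controls held many cells and were run in parallel. Per the labels they were otherwise processed alike. The deposited values are FPKM, which the authors made with Tophat 2.0.12 and Cufflinks 2.2.1 on mm10 under default options. Cufflinks splits fragments among isoforms and assigns them by a model, so the low values are estimates, and whole reads could not be recovered from them. The aligned read pairs that the study lists for each cell were not used here. All 23 columns were matched to a sample by title.

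FPKM were used as deposited. For log2 values, a floor of 1 FPKM was used. Genes that reached 1 FPKM in any of the 21 single cells were tested, where called means a difference of at least 4-fold (2 on the log2 scale) in mean log2 FPKM. A fold change on this scale understates the change of low genes. No p-values were computed. The genes named are the 10 members, up to 5 genes of each list that were 4-fold apart both in single cells and in the population controls, the 3 genes nearest to each member, the markers, and others marked as named after their values were seen. The values of 1 gene that this rule names are not reported here. The members and lists were chosen with earlier results of these data known. Intervals are exact at 95% and cover counting error only. The alternatives changed the log scale, the detection limit, the scaling, the gene filter and the cells included. Computations used matplotlib 3.10.9, scipy 1.17.1, pandas 2.3.3 and numpy 2.4.6 in Python 3.11.15.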

Additional observations from a re-analysis of the deposited data

Results flagged for a closer look

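Values that stood apart within the 5 HL1cm were sought with Dixon's test in 18 groups of values, of which 6 were marked. A group with 1 cell above 0 and the other 4 at 0 is always marked, whatever the value. The nominal rate of about 1 in 20 groups therefore does not apply, and the marks only point to such cells. Of 5 members that varied among HL1cm, 3 were marked, in each case because 1 cell was above 0 and the other 4 were at 0. They were Mmp2 and Timp2 in HL1cm4, at 1.54 and 7.87 FPKM, and Mmp11 in HL1cm3, at 11.0 FPKM. Among the other genes named, Bgn (1.97 FPKM) and Col1a1 (7.61 FPKM) were above 0 in 1 HL1cm, and Actc1, a cardiac actin, reached 3413 FPKM in 1 HL1cm.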

How the results depend on the processing

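No paired analysis was possible because no test was made and the numbers of the cells only name them. Over 17 alternatives, of which median-ratio scaling and leaving out the 6 cells of high FPKM sum were chosen after the data were seen, no 4-fold difference of a member changed its direction. The number of members at least 4-fold higher in mMSCs moved from 5 to 9 with the population controls alone and to 7 with values under 0.1 FPKM set to 0.1. With values under 10 FPKM set to 10 it was 4, since Mmp14 had a difference of 1.23 and was then neither 4-fold higher nor separated, with 11 of 16 mMSCs at 10 FPKM or more. It was 5 under the other alternatives run. The median difference over the members moved from 3.08 to 5.33 with values under 0.1 FPKM set to 0.1, to 0.89 with values under 10 FPKM set to 10 and to 4.39 with the population controls alone. The share of all genes 4-fold higher in mMSCs was 15.7%, 2.23% and 4.46%, and in HL1cm 16.1%, 1.82% and 4.75%, with these 2 floors and with no filter on genes. Without the 6 cells of high FPKM sum the share higher in HL1cm was 12.9%. When each library was rescaled to an equal total (TPM), the median SD of the 5 members above 0 in all mMSCs was 1.25 in place of 0.89, and the cause was not tested. The median difference over all genes was 0.16 under this scaling, 0.15 scaled to Gapdh and 0.08 as reported. The separation of population controls cannot be counted as ranges, since there is 1 library of each. No counts were used, which limits what a value of 0 means for Mmp3, Mmp11, Mmp13, Mmp19 and Mmp23.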

Other observations

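Syn2, the synapsin gene that holds Timp4, was above 0 in all 5 HL1cm, from 9.31 to 48.0 FPKM, and in HL1cm-PC at 8.06 FPKM, and at 0 in all mMSC libraries. Timp4 was at 0 in all 23 libraries.

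Of the genes that act on Mmps, 2 more are given after their values were seen. Lrp1, a receptor that clears proteases and their inhibitors, reached 9.83 FPKM at most in a single mMSC and 48.1 FPKM in mMSC-PC. Reck, a membrane inhibitor of Mmps, was above 0 in 1 mMSC (0.953 FPKM) and in 2 HL1cm (4.23 FPKM at most).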
